A study of Mus musculus with 16 samples.

Results

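In mouse embryonic stem cells in which an active c-Raf kinase was switched on by 4-hydroxytamoxifen (4OHT), 164 genes had a lower array signal 4 or 8 hours after induction than before it, and by 24 hours a signal near or above the starting one. They were selected from 20972 genes named on the array by a rule on measured values. The mean log2 signal at 4h or 8h had to be at least 0.8 below 0h, that is 1.74-fold lower, and below it by at least 0.4 in each of the 2 replicates, each set against the 0h array of the same number. The mean at 24h could be no more than 0.2 below 0h. The starting level had to be at least -3, on a scale where 0 is the 75th percentile of the array, so at least 12.5% of that percentile. Of the 12610 genes at this level, 1.30% passed. The values at 0h, 4h, 8h and 24h chose the members and are therefore given as descriptions, without tests. Tests were made only on DMSO, 30m, 1h and 2h, which the rule did not use.

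The 16 arrays form 8 groups of 2 replicates of E14tg2a embryonic stem cells, a mouse line derived from the early embryo. All cells carried the c-Raf fusion, which 4OHT activates, and were grown in serum with LIF, the cytokine that sustains self-renewal, on gelatin. The DMSO group is described as untreated. The 0h group had 24 hours of 250 nM PD173074, an inhibitor of FGF receptors, and the groups 30m, 1h, 2h, 4h, 8h and 24h had the same pre-treatment followed by 250 nM 4OHT for the time named. The groups with 4OHT are listed with 250 nM PD173074 beside the 4OHT, so they are read here as given 4OHT under the inhibitor. The 4h samples are described in minutes in 1 label, while title and time point give 4h, which was used. Cells given 4OHT without the fusion were not analysed here, so c-Raf activity and any other effect of 4OHT or of time in culture cannot be told apart. The labels do not say whether replicates came from separate cultures, so a p-value reflects the difference between 2 such samples, and this may be technical only.

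c-Raf phosphorylates the kinase Mek, which activates Erk, and Erk phosphorylates transcription factors that switch on immediate early genes within minutes. Products of these genes include phosphatases, inhibitors and transcriptional repressors that limit the signal and change the expression of further genes over the following hours. In embryonic stem cells FGF signalling through Erk is known as a signal that prepares exit from self-renewal. How soon the mRNA of a gene falls after its synthesis stops depends on its half-life.

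The deposited files assign the arrays to samples in 2 ways, which differ for 8 of the 16 arrays. The results follow the deposited value table, in which replicate 1 of every group lies on 1 slide and replicate 2 on the other. Under the other record, given by the samples to which the scanner files are attached, 53 genes pass the rule and only 2 of them are among the 164. The membership therefore rests on the value table being right. Between 54.9% and 67.2% of spots per array were well above background, and the 75th percentile by which the arrays were scaled was 445 to 660, highest on replicate 1 of 0h. All 10 stem cell markers on a list, among them Pou5f1, Sox2 and Nanog, were well above background on every array.

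Most members dipped at 4h. The rule was met at 4h only by 105 genes, at 8h only by 42 and at both times by 17. The median dip, the mean signal at the lower qualifying time minus 0h, was -0.95 on the log2 scale, with quartiles of -1.13 and -0.86. In 5 members, Slc22a23, Tal1, Dleu7, Meltf and Icam4, only 1 of the 2 arrays of the dip time was well above background, so the depth of their dip is uncertain. In the other 159 it ranged from 1.74-fold to 3.22-fold (Klhl5), and 62 of these were lower by 2-fold or more. Klhl5 has a dim probe, and its depth was much smaller with another background correction, as given below. The 3 members nearest to the threshold were Sec22c at -0.8001, Tmem106b at -0.8038 and Ncs1 at -0.8040, and the nearest genes outside were Emid1, Prkar1b and Smagp at -0.7992 to -0.7991.

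The medians over time are given by class. They start from the 0h arrays, and both the classes and the genes were chosen with 0h, 4h, 8h and 24h, so they describe the selection. For the genes dipping at 4h only, the median difference from 0h was -0.02 at 30m, -0.22 at 1h, -0.49 at 2h, -0.94 at 4h and -0.41 at 8h, and 0.22 at 24h. For the genes dipping at 8h only it was -0.06 at 1h, -0.08 at 2h, -0.51 at 4h and -0.93 at 8h, and 0.09 at 24h. The 17 genes that dipped at both times stood at -0.46 at 2h, -1.05 at 4h and -0.98 at 8h. Over all 15649 genes tested the medians stayed between -0.04 and 0.04 at all 6 times. The same rule applied to earlier times was met by 0 genes at 30m, by 1 at 1h and by 22 at 2h, of which 12 were members.

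**Figure D1:**
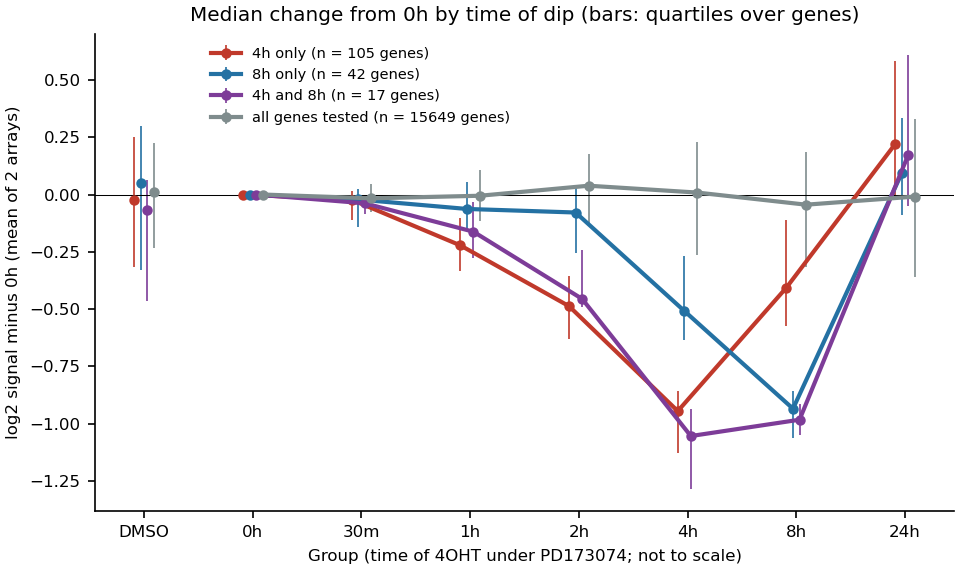
Median log2 difference from 0h of the members, split by the time at which they met the rule, and of all genes tested; points are medians over genes of the mean of 2 arrays and bars are quartiles over genes. At 2h the red and purple points lie at -0.49 and -0.46 and the blue at -0.08; the values at 0h, which set the zero line, and at 4h, 8h and 24h selected the genes.

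The dip was deeper in replicate 1 than in replicate 2 for 151 of the 164 members. The median difference at 4h was -1.10 in replicate 1 and -0.67 in replicate 2, and at 8h it was -0.82 and -0.40. Part of this gap remained when the mean of 30m and 1h, which the rule did not use, took the place of 0h: the medians were then -0.94 and -0.59 at 4h and -0.60 and -0.27 at 8h. The 2 replicates of a member differed by a median of 0.50, and by more than 1 in 16 members, among them Slc22a23, Tal1, Dleu7 and Cnih2. The contributions of slide and replicate cannot be told apart, since the division is the same.

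**Figure D2:**
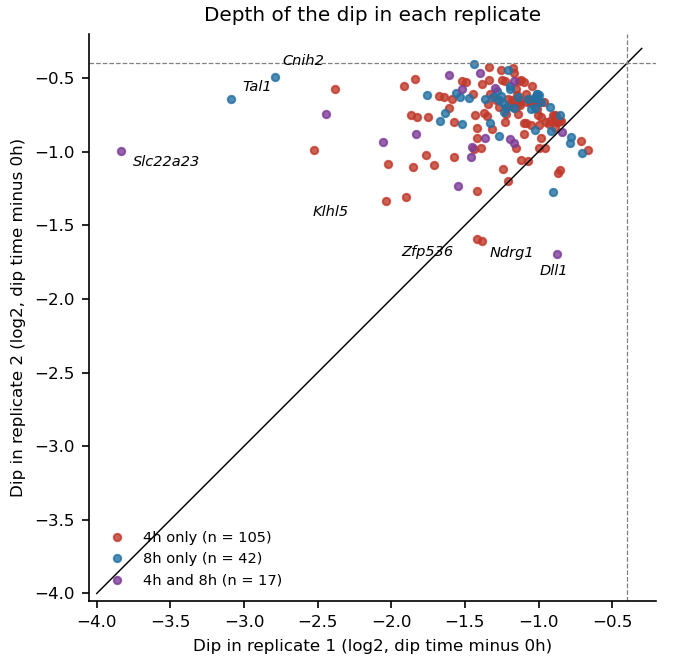
Dip of each member in replicate 1 (x axis) and replicate 2 (y axis), as log2 signal at the dip time minus the 0h array of the same replicate; the diagonal marks equal depth and the dashed lines the limit of -0.4 set by the rule. Most points lie above the diagonal, with the larger dip in replicate 1.

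Both arrays of the dip time were below both 0h arrays in 162 members. The background is high, as 39.0% of the genes at or above the level meet the same condition at 4h or 8h. Both dip arrays lay below all 12 arrays of the other 6 groups in 111 members, where the background was 7.29%. Against both DMSO arrays the dip was lower in 145 members (background 35.1%). At the dip, 106 members were at least 0.8 below the mean of 30m and 1h (background 3.77% at 4h, 6.19% at 8h and 7.66% for either), and all 164 were at least 0.4 below it. The 4h and 8h arrays were used to choose the genes, so nothing is read from these counts beyond the choice of baseline. Without replicate 1 of 4h the count of 106 became 68.

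**Figure D3:**
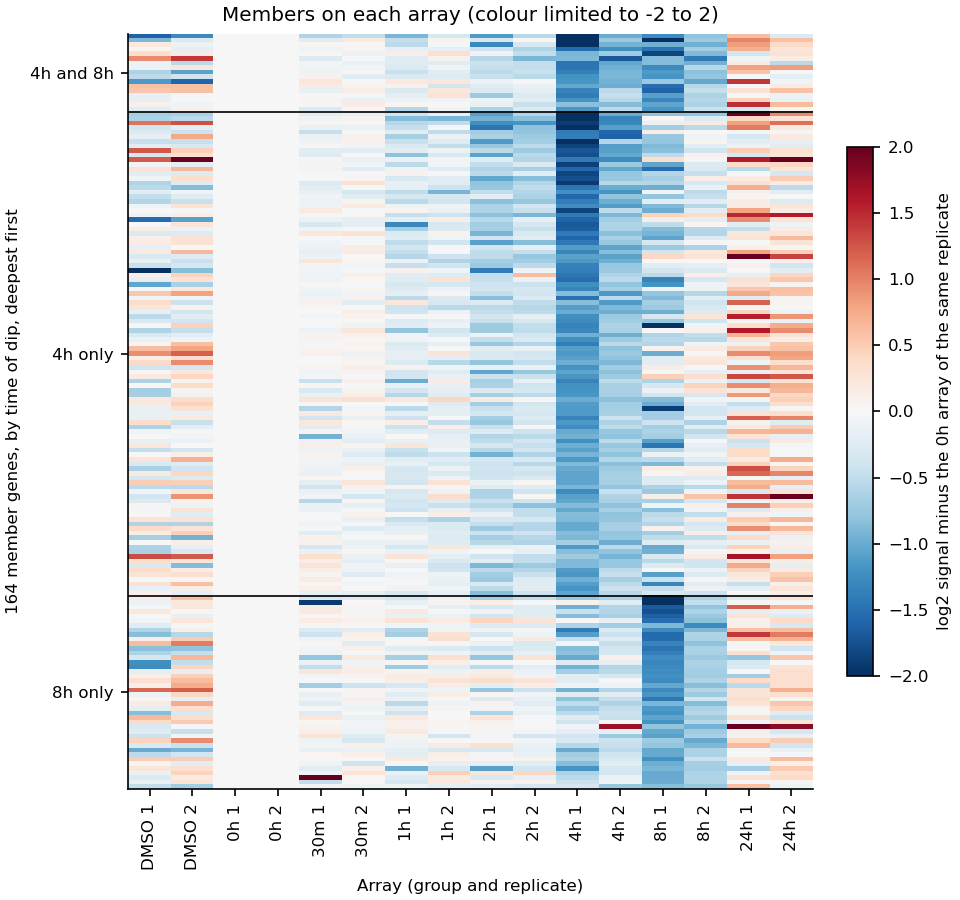
Log2 signal of the 164 members (rows) on the 16 arrays (columns) minus the 0h array of the same replicate, with blue for lower and red for higher signal; rows are grouped by time of dip and ordered by depth. The darkest blue is at 4h or 8h in replicate 1, and most rows are pale at 30m.

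How far the dip depended on the background correction went with the brightness of the probe. The 48 members with a mean level of 0 or more at 0h had a median dip of -0.95, which was -0.90 after a model-based background correction (normexp with an offset of 50), and 34 of them still met the rule. The 116 dimmer members had a median dip of -0.95 that became -0.52, and 11 of them met the rule. None of the 44 members with a level below -2 did, and their median dip went from -0.97 to -0.33. Among dimmer members described below, the corrected dips were -0.55 for Klhl5, -0.68 for Insm1, -0.58 for Dll1, -0.47 for Spib and -0.38 for Rgs17. These 5 genes no longer met the rule, and they are examples only. Other dimmer members described below also failed it, among them Spns2 at -0.20, Dusp26 at -0.27, Zfp287 at -0.44 and Egfr at -0.53. Of the brighter members described below, Gne, Siae, Pld2 and Pde4a did not meet it either. All 164 differences stayed below 0, between -1.49 and -0.13. The offset draws dim signals together by construction. The members described first below are therefore those with bright probes. All 164 members were well above background on both 0h arrays, and 158 on all 16 arrays.

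Ndrg1 dipped by a like amount in both replicates. It encodes a cytoplasmic protein induced by hypoxia and differentiation. Its level was 2.05 and 2.09 at 0h, 1.35 and 1.31 at 2h, 0.64 and 0.50 at 4h, 2.18 and 2.10 at 8h, and 2.08 and 2.12 at 24h, replicate 1 first. Both 4h arrays lay below the other 14, and by 8h both were back at the 0h level. At 4h it was 2.84-fold lower than at 0h, and with the background correction the difference was -1.49. It was the only member among 29 tested genes of a list for hypoxia and glycolysis, and the median of that list at 4h was 0.14 above 0h.

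Ascl2, a helix-loop-helix transcription factor of trophoblast and of stem cells, had a level of 0.93 and 1.37 at 0h, 0.37 and 0.86 at 1h, -0.29 and 0.19 at 2h, and -0.96 and 0.06 at 4h. It was back at 0.80 and 1.57 at 8h and stood at 1.75 and 2.47 at 24h. The 4h arrays were the lowest of each replicate, 3.04-fold below 0h on average. Plpp3, a lipid phosphatase of the cell surface, had 1.61 and 1.66 at 0h, 0.16 and 0.86 at 2h, -0.41 and 0.58 at 4h, 0.91 and 1.12 at 8h, and 2.65 and 1.86 at 24h. Its dip of 2.93-fold was deeper in replicate 1. Vezf1, a zinc finger transcription factor, stood at 1.61 and 1.86 at 0h, 0.22 and 0.88 at 4h, and 1.75 and 1.58 at 24h. In all 3 genes the 2h arrays lay between 0h and 4h in both replicates. The promoter window of Ascl2 is shown because it holds 3 CCAAT boxes, the motif found in the largest share of members' promoters. It covers chr7:142969215-142969514 on the minus strand of GRCm38.p6, from 250 bases before to 50 after the RefSeq start of the gene, with the motif on either strand in capitals.
Ascl2: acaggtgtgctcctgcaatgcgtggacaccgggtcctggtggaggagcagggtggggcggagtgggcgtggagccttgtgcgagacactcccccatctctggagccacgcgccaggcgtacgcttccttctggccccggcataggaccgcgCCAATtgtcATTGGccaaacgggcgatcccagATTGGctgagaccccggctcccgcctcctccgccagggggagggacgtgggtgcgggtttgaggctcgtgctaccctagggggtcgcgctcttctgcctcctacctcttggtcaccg

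The 3 members with the brightest probes at 0h dipped at 8h. Cbr3, a carbonyl reductase, had 5.71 and 4.96 at 0h, 6.07 and 5.21 at 2h, 5.51 and 4.94 at 4h, 4.46 and 4.33 at 8h, and 6.09 and 5.28 at 24h. Plcg2, a phospholipase C that is activated by tyrosine kinases, had 4.41 and 4.06 at 0h, 4.16 and 3.84 at 4h, 3.24 and 3.36 at 8h, and 4.67 and 4.38 at 24h. Arrdc4, an arrestin-domain protein related to the glucose sensor Txnip, had 2.96 and 2.88 at 0h, 2.56 and 2.86 at 4h, 1.76 and 2.33 at 8h, and 2.89 and 3.13 at 24h. In these 3 genes the 8h arrays were the lowest of all, and no other array of the same gene reached them. The dips were 1.92-, 1.91- and 1.83-fold. With the background correction they were -0.99, -0.94 and -0.95 and still met the rule. Slc27a3, a fatty acid transport family member, had 1.38 and 1.68 at 0h and -0.25 and 0.94 at 8h, so that the larger part of its dip lay in replicate 1. Of the 5 brightest, the other two, Arhgap45 and Cdpf1, dipped at 4h, Cdpf1 from 2.84 and 2.55 to 1.80 and 1.90.

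**Figure D4:**
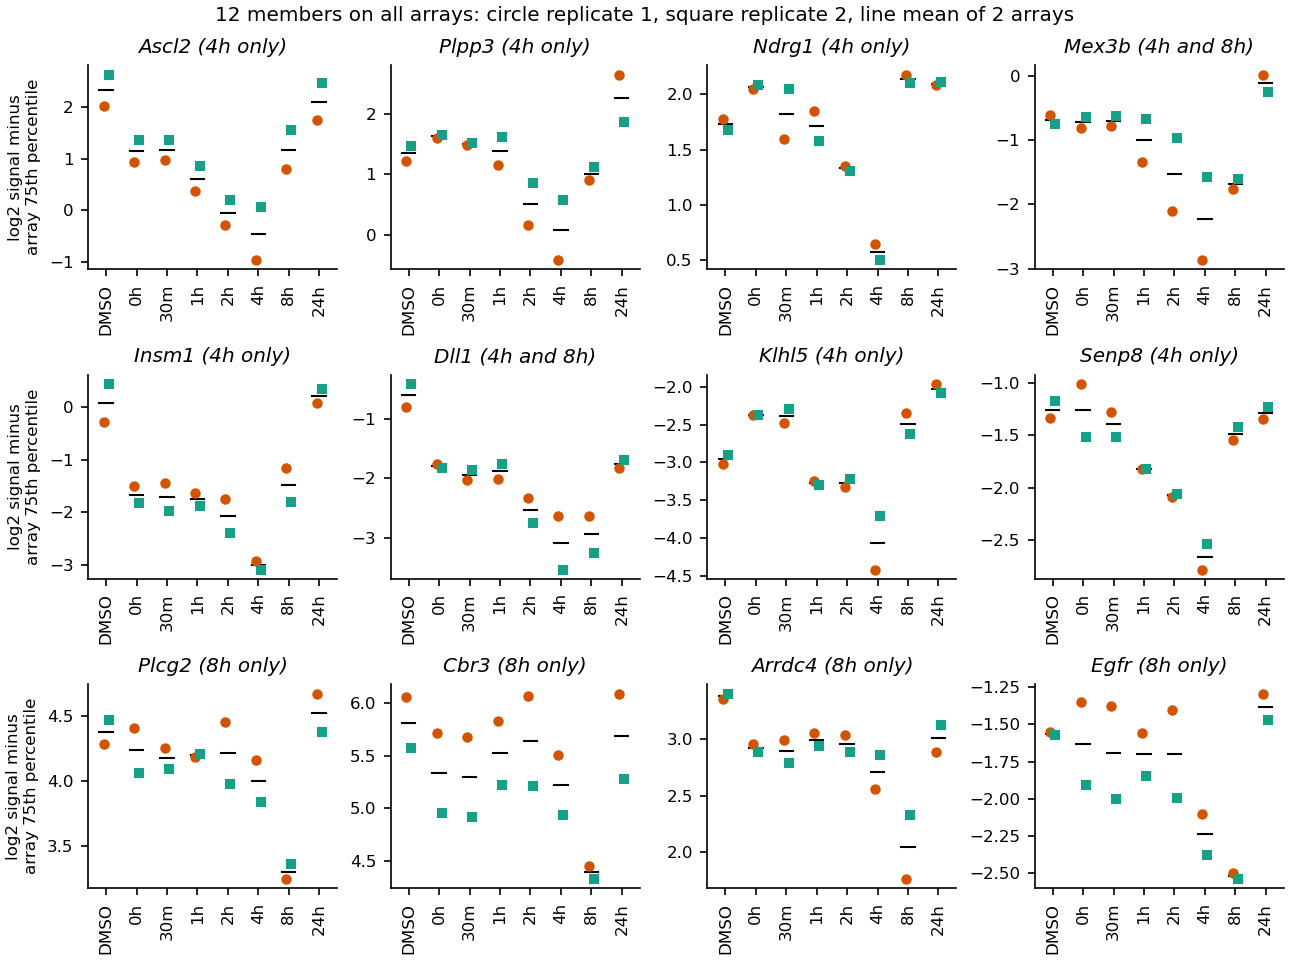
Level of 12 members on every array, as log2 signal minus the 75th percentile of the array, with circles for replicate 1, squares for replicate 2 and lines for the mean of 2 arrays. The top 2 rows hold genes whose lowest level was at 4h, and the bottom row genes whose lowest level was at 8h.

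Transcription factors made up 15 of the 73 members that could be placed by known function. These 12 groups were formed after the values were seen and carry no test. Their shares among all genes at the level were not determined, so the sizes of the groups are not read as a result. The dip was deepest at 4h in 14 of the 15 transcription factors, all but Tal1, and in 118 of all 164 members. Insm1, a zinc finger repressor of neuroendocrine cells, had -1.51 and -1.82 at 0h, -2.93 and -3.09 at 4h, -1.16 and -1.80 at 8h, and 0.07 and 0.35 at 24h. Its replicates were alike, and by 24h it was 1.88 above 0h. Bhlha15 (Mist1), a helix-loop-helix factor of secretory cells, had dips of -1.14 and -0.75. Nfil3, a repressor that binds the D-box elements of clock genes, had -0.90 and -0.75. Nr2c1, an orphan nuclear receptor, had -1.33 and -0.61, and the Ets family factor Spib had -1.24 and -1.12. The zinc finger genes Zfp287, Zfp438, Zfp536 and Zfp688 were 4 of 321 genes at the level whose symbol starts with Zfp and a number. That is 1.25%, near the 1.30% of all genes at the level. Tal1, a helix-loop-helix factor of blood cells, had a measured difference of -3.09 in replicate 1 and -0.64 in replicate 2, with only 1 of its 8h arrays well above background, so no exact depth can be given.

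Signalling genes were the other large set among the members placed by function. Among the G protein genes were Rgs11, Rgs14 and Rgs17, which encode proteins that speed the shut-off of G protein alpha subunits, 3 of 11 such genes at the level. That is 27.3%, beside 1.30% of all genes at the level, but the family was picked after the values were seen. Rgs17 had -2.56 and -2.16 at 0h, -3.63 and -3.22 at 4h, and -0.14 and -0.81 at 24h, so it dipped by the same amount in both replicates and ended 1.88 above 0h. Rgs14 dipped at both times, by -1.19 and -0.91 at 4h. Adcy9, which makes cyclic AMP, and Pde4a, which degrades it, dipped at 4h by -0.94 and -0.86 on average. The deeper dip was at 8h in 46 of all 164 members, and in 6 of the 10 members in tyrosine kinase signalling. They include the receptor Egfr, with -1.35 and -1.91 at 0h, -2.10 and -2.38 at 4h, -2.49 and -2.54 at 8h, and -1.29 and -1.47 at 24h. A second Egfr probe that was well above background at 0h differed by only -0.18 at 8h, and the mean over all Egfr probes by -0.51. The receptor Mertk dipped at both times, with a mean difference of -1.05 at its lower time. Egfr and Mertk were 2 of 29 tested genes of a list of receptor tyrosine kinases and adaptors, whose median was -0.23 at both 4h and 8h. Sh2d3c, an adaptor with an SH2 domain, had 1.17 and 0.92 at 0h, -0.05 and 0.18 at 4h, and 2.71 and 1.80 at 24h.

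Among regulators of small GTPases, Arhgap45, a GTPase activating protein, had 3.12 and 2.60 at 0h, 2.04 and 1.80 at 4h, and 2.90 and 2.80 at 8h, and kept its dip with the background correction. Rin2, a Rab5 exchange factor, differed by -1.87 in replicate 1 and -0.75 in replicate 2. Dll1, a ligand of Notch receptors, had -1.76 and -1.84 at 0h, -2.33 and -2.75 at 2h, -2.63 and -3.53 at 4h, -2.63 and -3.25 at 8h, and -1.83 and -1.69 at 24h. It is 1 of the 13 members with the deeper dip in replicate 2, and it was the only member among 20 tested genes of a Notch list, whose median at 4h was -0.33. Nkd1, an inhibitor of Wnt signalling that binds Dishevelled, dipped at 8h by -0.92 and -0.86, and was the only member among 35 tested Wnt genes, whose median at 8h was 0.08. Its difference was -0.39 with the background correction, and 0.48 above 0h when both of its probes were averaged, the second of which was not above background at 0h.

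Further members act in lipid, sugar and protein turnover. Of these, 3 handle sialic acid, and all 3 were lowest at 4h, where 118 of all 164 members had their deeper dip. Gne, the first enzyme of sialic acid synthesis, had 1.36 and 1.16 at 0h, 0.30 and 0.51 at 4h, 1.41 and 1.31 at 8h, and 2.51 and 2.14 at 24h. Siae, which removes acetyl groups from sialic acid, had dips of -1.08 and -0.66, and Casd1, which adds them, of -1.68 and -0.62. Of 7 lipid genes, 6 were lowest at 4h, including Mlycd, the malonyl-CoA decarboxylase, at -1.15 and -0.97, and Nceh1, a cholesterol ester hydrolase, at -1.22 and -0.71. Pld2, a phospholipase D, was lowest at 8h with -1.47 and -0.64. Senp8, the protease that removes Nedd8 from proteins, had -1.01 and -1.51 at 0h, -2.09 and -2.06 at 2h, and -2.78 and -2.54 at 4h, then -1.54 and -1.42 at 8h. A second Senp8 probe had a difference of -1.22. Klhl5, a substrate adaptor of Cul3 ubiquitin ligases, was already at -3.24 and -3.29 at 1h, from -2.38 and -2.37 at 0h, and reached -4.41 and -3.71 at 4h. Mex3b, an RNA-binding ubiquitin ligase, had -0.81 and -0.64 at 0h, -2.87 and -1.58 at 4h, and 0.02 and -0.26 at 24h.

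Several of the deepest dips rest on 1 array. Slc22a23, an organic ion transporter family member, had the largest measured difference, -3.83 in replicate 1, but only 1 of its 4h arrays was well above background, so this depth is not exact, while in replicate 2 it went from -2.39 at 0h to -3.38 at 4h. With the background correction the mean difference was -0.52 in place of -2.42. Cnih2, an auxiliary protein of AMPA receptors, stood at 1.04 and 1.05 at 0h and at -1.74 and 0.55 at 8h. Its replicate 1 array of 30m was also low, at -0.87, and a second Cnih2 probe differed by -0.59 at 8h. Meltf, Dleu7 and Klhl42 likewise had replicate differences more than 1 apart, and Meltf and Dleu7 had only 1 array of 4h well above background. The remaining genes among the 20 deepest were Zfp536, Lrrc20, Trmt9b, Ggt6, Synm and Tmprss13, with mean dips of -1.30 to -1.50 and differences between -0.88 and -1.85 in single replicates.

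Second probes were available as a check on the same RNA. Of 41 members with another probe, 31 had 1 or more that was well above background at 0h, 37 probes in all. At the dip time 31 of these probes were lower in both replicates, 27 by at least 0.4 and 15 by at least 0.8 on average, and 4 were not lower (for Ccdc30, Patj, Soga1 and Tmem106b). Their median difference was -0.70, beside -0.97 for the selected probes of the same genes. Both kinds of probe were read on the arrays that chose the genes.

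By 24h, 110 members were within 0.4 of 0h, 54 were more than 0.4 above it and 14 were 1 or more above. The highest was Cdh13, T-cadherin, a cadherin anchored by lipid, at -2.21 and -2.66 at 0h, -2.99 and -3.60 at 8h, and 0.72 and -0.85 at 24h. Its replicate 2 array at 4h stood at -0.95, far above replicate 1 at -2.28. Hsf5, a heat shock factor family member, ended 2.27 above 0h, but its 0h arrays differed widely, at -1.20 and -3.47, and its dip of -0.85 turned to 0.29 without replicate 1 of 0h and 0.04 without replicate 2 of 4h. Zfp287 was alike in both replicates: -2.31 and -2.37 at 0h, -3.73 and -3.28 at 4h, -1.87 and -1.99 at 8h, and -0.80 and -0.78 at 24h. The rule set a lower bound at 24h and no upper one.

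The 2h arrays give a view of the members that the selection did not use. Relative to the mean of 30m and 1h, 125 of the 164 were lower at 2h in both replicates and 8 were higher in both. Of all genes tested, 26.0% were lower in both and 36.2% were higher in both. The median difference of the members was -0.28, with -0.27 and -0.26 in the replicates, beside 0.04 over all genes tested. Of the genes dipping at 4h only, 93 of 105 were lower in both replicates and 0 were higher in both. Of the genes dipping at 8h only, 17 of 42 were lower and 8 were higher. Of those dipping at both times, 15 of 17 were lower. The difference between the classes was not tested.

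**Figure D5:**
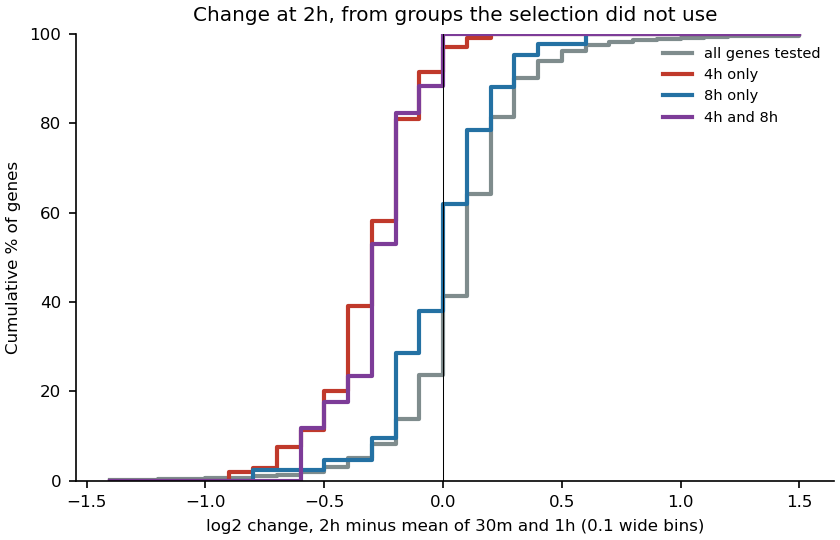
Cumulative share of genes (y axis, %) with a log2 change from the mean of 30m and 1h to 2h up to the value on the x axis, for the 3 classes of members and all genes tested. The curves for dips at 4h and at both times lie furthest to the left. Around 0 the curve for 8h only lies between these and all genes, with 61.9% of its genes below 0 beside 41.3% of all genes tested.

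Gene by gene, 0 of 164 members passed in this 2h comparison (limma, Benjamini-Hochberg adjusted p under 0.05 over 15649 genes). Across all genes 3 were called lower (0.0192%) and 13 higher (0.0831%). In simulated data this comparison called 14% of genes with a fall of 0.5 and 52% of those with a fall of 1. The 0 calls therefore do not show that the members stayed level. At an unadjusted p under 0.05, 27 members were lower and 0 higher, while of all genes 2.29% were lower and 2.99% higher. With the replicate number as a block, 2 members were called lower where the background was 0.0767%, and 0 higher where it was 0.377%. They were Ascl2, by -0.94 (limma adjusted p = 0.0165, and 0.822 without the block), and Tsc22d3, by -0.75 (limma adjusted p = 0.0187, and 0.0710 without). Tsc22d3 encodes the leucine zipper protein Gilz, which is induced by glucocorticoids and by FoxO factors. It had -0.69 and -0.77 at 0h, -1.07 and -1.01 at 1h, -1.75 and -1.53 at 2h, -1.74 and -1.59 at 4h, and -0.73 and -0.93 at 8h, and so had reached its lowest level by 2h. It was named after its values were seen.

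The comparison of 30m and 1h with DMSO asks where the members stood under the inhibitor, with at most 1 hour of 4OHT, relative to untreated cells. The median difference was -0.05, beside -0.01 for all genes tested. In this comparison 8 members were called lower, 4.88% of the members where the background was 2.95%, and 4 higher, 2.44% where it was 3.91% (limma adjusted p under 0.05). With the replicate block the counts were 22 and 11, where the backgrounds were 10.7% and 10.6%. The lower genes were Insm1 (-1.81 ± 0.28 SE, limma adjusted p = 0.00547), Lurap1l (-1.20 ± 0.18, 0.00455), Spns2, Dusp26, Dll1, Bhlha15, Tmem145 and Ascl2 (-1.44 ± 0.36, 0.0426). The 4 higher genes were Ncmap (1.53 ± 0.30, 0.0152), Endod1, Nfil3 (0.77 ± 0.16, 0.0185) and Prss16. Of 13 alternatives that keep the value table's samples, Insm1 was called in 12, and Lurap1l, Spns2 and Dusp26 in 11. Ncmap and Dll1 were called in 10, Bhlha15 and Tmem145 in 8, Nfil3 in 7, Endod1 and Ascl2 in 6 and Prss16 in 4. Without replicate 1 of DMSO 2 calls were left, and without replicate 2 of DMSO 3.

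Of the 8 genes that were lower under the inhibitor, several were near their DMSO level again after 24h of 4OHT. The rule had left out genes that stayed below 0h at 24h beyond its limit, so the 24h levels are descriptions only. It set no condition on the distance from DMSO. Values of Lurap1l are not given here. For Insm1 the DMSO arrays gave -0.28 and 0.44 and the 24h arrays 0.07 and 0.35. Dusp26, a dual-specificity phosphatase, was measured at -0.98 and -0.64 in DMSO, -2.28 and -1.88 at 0h, -2.99 and -2.81 at 4h, and -0.61 and -1.05 at 24h. The 24h arrays of Bhlha15 gave -0.80 and -1.11, beside -0.81 and -0.75 for DMSO. Spns2, the sphingosine 1-phosphate exporter, had -2.34 and -2.02 in DMSO, -2.88 and -2.83 at 0h, -3.75 and -3.98 at 4h, and -2.13 and -2.25 at 24h. Ascl2 had 2.02 and 2.64 in DMSO. Dll1 did not come back as far, with -0.80 and -0.42 in DMSO beside -1.83 and -1.69 at 24h, and neither did Tmem145, with -0.39 and -0.10 beside -1.03 and -0.90. Among the higher genes, Ncmap, a membrane protein of myelinating Schwann cells, had -2.49 and -2.53 in DMSO, -1.34 and -0.93 at 0h and -2.51 and -1.87 at 4h, which brought it near the DMSO level at the dip.

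None of 24 pathway lists held more than 2 members. Members were 164 of the 15649 genes tested, so 0 or 1 member in a list of this size says little about its pathway. A list for Erk feedback and Ets factors held 0 of 21 tested, and its median was 1.94 above 0h at 4h and 1.98 at 8h. In it 5 genes were called lower and 2 higher for 30m and 1h against DMSO, and 3 were called higher at 2h (limma). The lists for FoxO targets (0 of 30), naive pluripotency factors (0 of 23) and cell cycle genes (0 of 33) held none. Nfil3 was the only member among 16 clock genes and among 27 short-lived repressors.

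Summed levels of markers of other cell types moved over the same hours, and a sum is carried mostly by its brightest genes. As sums of linear levels, trophoblast markers, 1 of whose 9 tested genes is Ascl2, were at 30.7 to 51.9 at 0h, 43.7 to 52.9 at 4h, 61.6 to 75.5 at 8h and 78.1 to 126 at 24h, with Elf5 not above background in any group. Primitive endoderm markers were at 30.7 to 31.4 at 0h, 27.4 to 30.0 at 4h, 26.8 to 27.2 at 8h and 11.4 to 13.0 at 24h. Neural markers were at 10.8 to 14.7 at 0h, 8.78 to 10.2 at 4h, 7.41 to 8.64 at 8h and 4.16 to 4.79 at 24h. The median relative to 0h at 24h was -0.45 over the 8 tested primitive endoderm markers and -0.96 over the 7 tested neural markers. Fibroblast markers were at 3.28 to 3.34 at 0h, 2.85 to 3.15 at 4h, 13.2 to 19.7 at 8h and 13.8 to 14.5 at 24h. The median over the 7 tested fibroblast markers was -0.02 relative to 0h at 8h, so the list did not share the rise in the sum. For the 9 tested trophoblast markers the median was 1.19 at 8h and 0.96 at 24h. Of these, Tfap2c and Gata3 were lower at 24h, by -1.34 and -0.55, and the others were higher. The part of all these markers in the dips was not tested, and in a bulk culture fewer cells of a type and less RNA per cell cannot be told apart.

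The gene length of the members had a median of 20642 bp, beside 20879 bp for the other genes at the level. Promoter windows were listed by RefSeq for 134 of them (81.7%), with a median GC content of 62.6% beside 60.7%. Of 12 motifs searched on both strands, the E-box CACGTG, the site of Myc, Usf and clock factors, was present in the windows of 21 members (15.7%; 11.8% of all genes at the level with a window). The CCAAT box was present in 59 (44.0%; 43.2%), the AP-1 motif TGANTCA in 8 (5.97%; 6.03%) and the cyclic AMP element TGACGTCA in 1 (0.746%; 3.55%). The Ets motif ACCGGAAGT was present in 1, Vezf1 (0.746%; 2.45%). A match is a description of the letters only. The E-box windows of 3 members with values above are shown, Senp8 as a dip at 4h and Arrdc4 and Plcg2 as dips at 8h. They cover chr9:59750600-59750899 (minus strand), chr7:68749189-68749488 (minus strand) and chr8:117498025-117498324 (plus strand) of GRCm38.p6, with the E-box in capitals. It lies 182, 193 and 20 bases before the start of the gene.
Senp8: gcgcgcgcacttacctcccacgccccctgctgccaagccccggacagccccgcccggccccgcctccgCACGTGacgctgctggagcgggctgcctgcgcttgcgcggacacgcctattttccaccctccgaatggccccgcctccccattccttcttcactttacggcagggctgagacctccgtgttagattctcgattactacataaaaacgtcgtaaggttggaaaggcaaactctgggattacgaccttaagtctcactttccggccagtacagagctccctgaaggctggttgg
Arrdc4: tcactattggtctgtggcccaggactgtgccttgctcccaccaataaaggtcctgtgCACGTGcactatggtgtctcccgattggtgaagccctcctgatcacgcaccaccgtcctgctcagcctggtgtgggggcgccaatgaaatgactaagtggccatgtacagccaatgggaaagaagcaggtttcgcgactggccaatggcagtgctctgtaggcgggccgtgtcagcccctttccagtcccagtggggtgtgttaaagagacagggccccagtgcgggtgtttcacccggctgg
Plcg2: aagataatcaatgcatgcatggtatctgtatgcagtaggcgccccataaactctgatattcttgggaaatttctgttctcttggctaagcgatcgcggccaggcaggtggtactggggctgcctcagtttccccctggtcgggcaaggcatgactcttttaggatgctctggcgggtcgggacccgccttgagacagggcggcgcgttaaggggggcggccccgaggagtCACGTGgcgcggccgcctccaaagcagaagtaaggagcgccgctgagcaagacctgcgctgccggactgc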

How the data were processed

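Agilent 1-colour mouse arrays were read with Feature Extraction 11.0.1.1, per the file headers. The labels name Cy5, while the scanner files hold the green channel. The authors deposited processed signal intensity on a linear scale, background-subtracted by the scanner software, in scanner files and in a value table. Each scanner file matched 1 table column at 100% of spots (tolerance 0.6%, next best 4.99%), and for 8 arrays that column belongs to another sample. The table's record was used, and flags were taken from the matching scanner file. This choice and the reading of the replicate rule were made after the data were seen.

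Log2 intensity minus the 75th percentile of each array was analysed. Of 55681 probes, 27656 were named through RefSeq accessions (GRCm38.p6, for names), 28025 had no gene and 0 several, giving 20972 genes. The probe with the highest mean stood for its gene. Tests used limma 3.58.1 in R 4.3.3, 1 fit of 8 group means over 16 arrays (8 residual degrees of freedom) for 15649 genes well above background on both arrays of a group, with Benjamini-Hochberg adjustment. The script was tested on simulated data. Same-numbered arrays deviated together in all 28 pairs of groups (correlations 0.326 to 0.657) and share a slide, so the numbers pair the samples. The main fit left this pairing out, and only the replicate block uses it. For Ascl2 in 30m and 1h against DMSO the SE was 0.36 in the main fit and 0.13 with the block. Alternatives were other scalings, normexp (on the median spot and background signals, since no mean signal was in the files used here), no filter on dim probes, probe means, outlier spots left out, a replicate block, arrays left out in turn and the other sample record.

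Members, 24 pathway lists and 5 marker lists were chosen with earlier results of these data known. Named are the 20 deepest dips, called genes, the 5 highest at 24h and at 0h, list members and the 3 genes on either side of the threshold. Members named for their function were chosen after their values were seen. Only 2 arrays per group limit the precision.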

Additional observations from a re-analysis of the deposited data

How the results depend on the processing

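The number of genes meeting the rule, 164, was 139 to 177 with median or quantile scaling, outlier spots left out, probe means or each replicate set against the mean of both 0h arrays. It was 52 with normexp, 53 with samples as attached to the scanner files and 67 at a depth of 1.0, and 137 to 282 with 1 array left out (271 without replicate 2 of 4h, 282 without replicate 2 of 8h). The genes changed more than the number: 98 of the 164 passed without replicate 1 of 0h, 118 without replicate 2 of 0h and 108 without replicate 1 of 4h. The 106 members at least 0.8 below 30m and 1h became 29 with normexp and 19 with samples as attached, and 68 to 127 with 1 array left out. For 30m and 1h against DMSO, the 12 called members became 5 with median scaling, 0 as attached and 33 with the replicate block, and 2 to 9 with 1 array left out (2 and 3 without replicates 1 and 2 of DMSO; 7 without either 1h array or replicate 2 of 30m). The median of -0.05 became -0.019 with quantile normalization and 0.0888 as attached, and -0.103 to -0.0545 with 1 array left out. Dusp26 and Ascl2 reversed there as attached, to 0.0334 and 0.107. At 2h the 0 called members became 1 with quantile normalization, 1 (higher) as attached and 2 with the replicate block, and 0 to 0 with 1 array left out. The median of -0.28 became -0.34 with median scaling, -0.30 with quantile normalization, -0.22 with normexp, -0.27 with probe means and -0.0506 as attached, and -0.29 to -0.26 with 1 array left out. Median scaling moved the all-gene median at 24h by -0.10, and the members' median there from 0.18 to 0.08. Of 378 recomputed dips of 42 named members, 375 stayed below 0 with the value table's samples. The others were Nkd1 with probe means (0.476) and Hsf5 without replicate 1 of 0h (0.285) or replicate 2 of 4h (0.0442). As attached, 24 of 42 did. Except where stated, the cause of a change was not tested.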
